A study of Mus musculus with 12 samples.

Results

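The genes described are 7 that were low in the extensor digitorum longus (EDL) of control mice and raised in that of mice labelled as lacking Nrip1 in striated muscle: Kcnk1, Tmprss13, Ptgds, Unc13c, Chrna4, Chrna2 and Wnt16. They are 7 of the 17752 genes listed in the table. They were selected on their levels in these same 12 libraries, low in libraries labelled Ctrl and raised in libraries labelled Nrip1KO, so the genotype difference of each is given as a description with no test. The EDL lies in the front of the lower leg and consists mainly of fast fibers. Levels are in FPKM, fragments per kilobase of transcript scaled by depth.

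The 12 libraries came from male mice, which at 8 weeks of age either stayed sedentary or were given a wheel to run on at will, with 3 libraries in each of the 4 groups. Per the study's methods, mice with floxed Nrip1 alleles (Nrip1 fl/fl) on C57BL/6J were bred to a line on C57BL/6JN in which the muscle creatine kinase (MCK) promoter drives Cre, a driver active in heart and skeletal muscle. The loxP sites flank the last Nrip1 exon, which holds the coding sequence. Cre-positive progeny are named strNrip1-/- here, and Cre-negative littermates are the Ctrl mice. Mice that ran little were taken out of the training study. Training is the only treatment, and the labels do not say that each library is a separate animal, so the p-values below measure the spread between these libraries, which may be technical.

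Estimated depth was 20.1 to 29.0 M fragments a library. A detection floor of 3 fragments was used, which for a 2-kb transcript is 0.0626 to 0.0907 FPKM and covers counting error only. Fast muscle fiber markers were at 98720 to 155300 FPKM in sum over 10 genes in every library. Nrip1, which encodes the nuclear receptor corepressor RIP140, went against the genotype labels: it was at 3.598, 2.547 and 3.844 FPKM in sedentary and 2.53, 4.76 and 3.56 FPKM in trained libraries labelled Ctrl, and at 15.5, 16.3 and 14.9 FPKM in sedentary and 20.7, 14.9 and 16.6 FPKM in trained libraries labelled strNrip1-/-. The log2 difference was 2.08 in sedentary (SE 0.20, adjusted p = 0.000277 with limma) and 2.14 in trained muscle (SE 0.20, adjusted p = 0.000209). The table gives 1 value per gene, so that fragments from the floxed exon cannot be told apart from the others. Every direction below is therefore one between libraries labelled Ctrl and libraries labelled strNrip1-/-.

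The 7 genes belong to several families. Kcnk1 encodes TWIK-1, a two-pore-domain potassium channel that carries background potassium current. Tmprss13 encodes a type II transmembrane serine protease known mainly from epithelia, and Ptgds encodes lipocalin-type prostaglandin D2 synthase, which converts prostaglandin H2 to prostaglandin D2 and is abundant in brain and its membranes. Unc13c encodes Munc13-3, a protein that primes synaptic vesicles for release in neurons. Chrna4 and Chrna2 encode alpha subunits of nicotinic acetylcholine receptors of the neuronal kind, which pair with beta subunits other than that of the muscle receptor. Wnt16 encodes a secreted WNT ligand. RIP140 is known to bind ligand-activated nuclear receptors and to lower transcription of their target genes.

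The positions of the 7 genes are (GRCm38, GENCODE release M21): Kcnk1 at chr8:125995170-126030685, Tmprss13 at chr9:45319100-45347581, Ptgds at chr2:25466709-25470046, Unc13c at chr9:73479422-73968966, Chrna4 at chr2:181018380-181043546, Chrna2 at chr14:66135039-66152948 and Wnt16 at chr6:22288227-22298522. All are protein-coding. Because the library kit does not keep strand, fragments from the annotated antisense genes Gm45875, which overlaps exons of Kcnk1, and 1700003G13Rik, which overlaps exons of Tmprss13, cannot be told apart from those of the coding genes. Ptgds, Unc13c, Chrna4, Chrna2 and Wnt16 overlap no annotated antisense gene, although 4 genes annotated as noncoding, pseudogene or unclassified lie in introns of Unc13c.

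RefSeq promoter windows, 250 bases before to 50 after a start site on GRCm38.p6, were matched for 5 of the 7 genes by symbol. The bases before the start are shown because the genes were chosen as low in one labelled genotype and raised in the other. They are printed 5′ to 3′ on the strand of the gene, without bases that lie in an annotated exon of GENCODE. Capitals mark matches, on either strand, to 8 motifs: the nuclear receptor half-site AGGTCA, the estrogen-related receptor extended half-site TCAAGGTCA, the ETS core CCGGAAG, the CCAAT box, the E-boxes CAGCTG and CACCTG, the TATA box TATAAA and the MEF2 core TATTTTTA. The extended half-site contains the half-site. The printed stretches of Ptgds and Chrna4 lie inside the annotated extent of these genes. Their windows therefore precede a start site other than the outermost one annotated.

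Kcnk1, chr8:125994852-125995101, plus strand:
Kcnk1: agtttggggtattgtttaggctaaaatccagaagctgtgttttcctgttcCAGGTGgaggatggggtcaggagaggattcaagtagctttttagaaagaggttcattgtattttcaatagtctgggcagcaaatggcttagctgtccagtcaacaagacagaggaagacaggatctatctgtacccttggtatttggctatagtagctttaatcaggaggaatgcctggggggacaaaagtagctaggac

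Ptgds, chr2:25469843-25469999, minus strand:
Ptgds: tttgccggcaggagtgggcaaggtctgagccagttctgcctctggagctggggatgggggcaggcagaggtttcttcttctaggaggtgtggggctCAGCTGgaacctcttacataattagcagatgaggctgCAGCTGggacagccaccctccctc

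Unc13c, chr9:73969038-73969287, minus strand:
Unc13c: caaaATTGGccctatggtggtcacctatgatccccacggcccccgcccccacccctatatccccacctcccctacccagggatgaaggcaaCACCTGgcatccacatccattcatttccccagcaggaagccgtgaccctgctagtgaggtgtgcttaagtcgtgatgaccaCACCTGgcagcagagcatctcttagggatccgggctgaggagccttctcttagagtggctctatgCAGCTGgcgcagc

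Chrna4, chr2:181039306-181039427, minus strand, with no match in capitals:
Chrna4: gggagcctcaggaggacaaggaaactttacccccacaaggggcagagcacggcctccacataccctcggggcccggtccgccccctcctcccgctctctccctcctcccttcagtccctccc

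Wnt16, chr6:22287977-22288226, plus strand:
Wnt16: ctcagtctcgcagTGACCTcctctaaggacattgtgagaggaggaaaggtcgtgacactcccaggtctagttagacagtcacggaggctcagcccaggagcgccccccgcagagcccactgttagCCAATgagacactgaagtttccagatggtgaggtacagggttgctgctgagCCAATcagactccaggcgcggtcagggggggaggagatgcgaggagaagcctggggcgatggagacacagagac

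These 5 windows had little in common. The nuclear receptor half-site was found in 1 of the 5 (Wnt16, as TGACCT, starting at position -237 from the start site) and in 16.3% of all 32817 windows of the same length. The extended half-site was found in none of the 5 and in 0.424% of all windows. An E-box CAGCTG was found in Ptgds, at -154 and -117, and in Unc13c at -13, against 16.3% of all windows. CACCTG or its reverse complement was found in Kcnk1 at -200 and in Unc13c at -159 and -78, against 20.2% of all windows. The CCAAT box was found in Wnt16, at -125 and -74, and in Unc13c at -246, against 37.4%. The ETS core, the TATA box and the MEF2 core were found in none of the 5, against 8.86%, 13.6% and 2.72% of all windows. No match says only that these letters are not in the window.

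Base composition also differed within the set. Over the 250 bases before the start, GC content was 44.4% for Kcnk1, 58.4% for Ptgds, 58.8% for Unc13c, 59.2% for Wnt16 and 74.4% for Chrna4, against a median of 52.4% over all windows. The CpG count was 0 for Kcnk1, 2 for Ptgds, 6 for Unc13c, 9 for Wnt16 and 24 for Chrna4, against a median of 6. Both measures cover all 250 bases, of which 93 for Ptgds and 128 for Chrna4 lie in annotated exons and are not printed. Most of the 24 CpG of Chrna4 therefore do not show in its printed stretch. The genes thus range from a window with no CpG to one rich in CpG.

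In every library labelled strNrip1-/-, 6 of the 7 genes exceeded their highest level in the 6 labelled Ctrl libraries. Of all listed genes 2.3% did so, and nothing is read from that share, because the genes were selected on this contrast. The genes just inside that separation were Wnt16, whose lowest strNrip1-/- library was at 2.28 FPKM and whose highest Ctrl library was at 1.324 FPKM, and Chrna4, at 2.07 against 0.991 FPKM. Chrna2 was just outside, since its lowest strNrip1-/- library, at 0.0823 FPKM, was below its highest Ctrl library, at 0.144 FPKM.

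**Figure D1:**
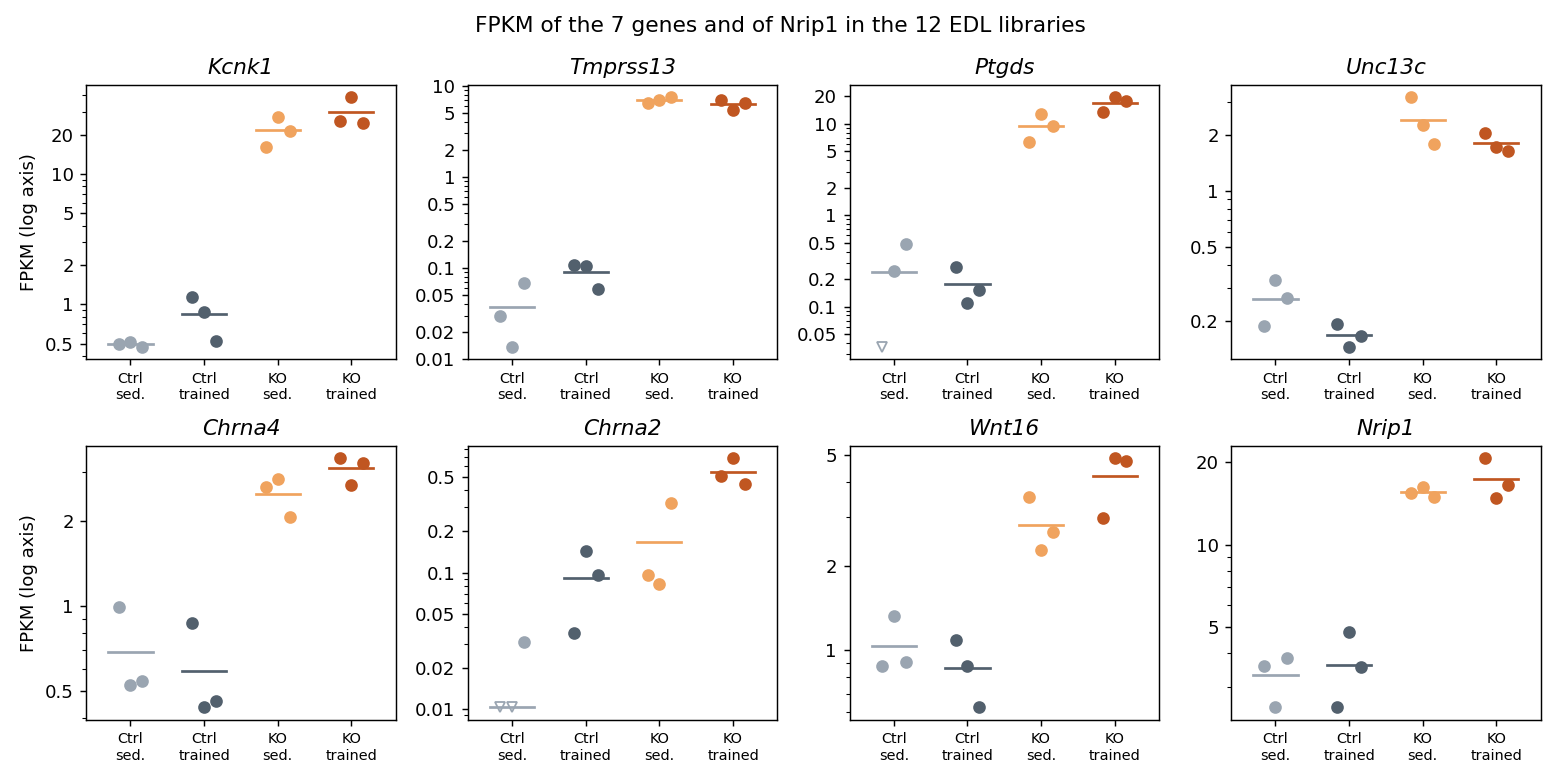
FPKM on log axes of the 7 genes and of Nrip1 in each library (points) of the 4 groups, with the mean of 3 libraries (line); Ctrl and KO are the labelled genotypes, sed. is sedentary and open triangles at the bottom are libraries listed at 0. In 6 of the 7 genes, and in Nrip1, all 6 KO libraries lie above all 6 Ctrl libraries, and in Chrna2 the sedentary KO libraries overlap the trained Ctrl libraries.

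Kcnk1 reached the highest level of the 7. It was at 0.495, 0.514 and 0.474 FPKM in sedentary and 1.15, 0.877 and 0.525 FPKM in trained libraries labelled Ctrl. In libraries labelled strNrip1-/- it was at 16.0, 27.5 and 21.4 FPKM in sedentary and 25.6, 38.5 and 24.6 FPKM in trained muscle. The lowest strNrip1-/- library was far above the highest Ctrl library, and the mean was 38.1 times that of labelled Ctrl. In rank among all listed genes of a library, its median moved from the 29.6th to the 85.9th percentile. This potassium channel was thus a rare transcript in labelled Ctrl EDL and one in the upper part of the table in labelled strNrip1-/- EDL.

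Tmprss13 had the largest ratio over all 12 libraries. It was at 0.0294, 0.0137 and 0.0685 FPKM in sedentary and 0.107, 0.106 and 0.0588 FPKM in trained libraries labelled Ctrl. In libraries labelled strNrip1-/- it was at 6.52, 7.06 and 7.48 FPKM in sedentary and 7.07, 5.48 and 6.46 FPKM in trained muscle. Its single annotated transcript of 3245 nt allows the values to be read as fragments: the 6 labelled Ctrl libraries held about 28 fragments in sum (95% exact Poisson interval 18.6 to 40.5) and the 6 labelled strNrip1-/- libraries about 2981. The mean was 104 times that of labelled Ctrl, a ratio whose lower term rests on those few fragments. Within sedentary muscle the ratio was 188.7, and within trained muscle it was 69.9, below the 94.9 of Ptgds. The 6 strNrip1-/- libraries of this protease differed among themselves by at most 1.37 times, the narrowest spread of the 7 genes.

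Ptgds was listed at 0, 0.244 and 0.480 FPKM in sedentary and 0.270, 0.110 and 0.153 FPKM in trained libraries labelled Ctrl. For its longest transcript, of 901 nt, 3 fragments correspond to 0.188 to 0.272 FPKM, and 3 of the 6 Ctrl values were at or under that limit. In libraries labelled strNrip1-/- this prostaglandin D2 synthase was at 6.35, 12.8 and 9.57 FPKM in sedentary and 13.5, 19.4 and 17.6 FPKM in trained muscle. Mean level was 63.1 times that of labelled Ctrl, and all 3 trained strNrip1-/- libraries lay above all 3 sedentary ones.

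Unc13c, Chrna4, Wnt16 and Chrna2 moved between lower levels. Unc13c was at 0.186, 0.333 and 0.264 FPKM in sedentary and 0.192, 0.145 and 0.165 FPKM in trained libraries labelled Ctrl, and at 3.17, 2.26 and 1.79 FPKM in sedentary and 2.05, 1.71 and 1.64 FPKM in trained libraries labelled strNrip1-/-. The vesicle priming gene was 9.81 times its labelled Ctrl mean. Chrna4 was at 0.991, 0.526 and 0.541 FPKM in sedentary and 0.871, 0.437 and 0.460 FPKM in trained libraries labelled Ctrl, against 2.65, 2.82 and 2.07 FPKM in sedentary and 3.35, 2.68 and 3.24 FPKM in trained libraries labelled strNrip1-/-. The ratio for this nicotinic subunit was 4.39, and replicate 1 was the highest Ctrl library in both training states.

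Wnt16 was at 0.876, 1.324 and 0.907 FPKM in sedentary and 1.09, 0.880 and 0.625 FPKM in trained libraries labelled Ctrl, and at 3.54, 2.28 and 2.66 FPKM in sedentary and 2.99, 4.89 and 4.78 FPKM in trained libraries labelled strNrip1-/-. With a ratio of 3.71 the WNT ligand had the smallest ratio of the 7, and it had the highest mean of them in labelled Ctrl muscle. Its ratio was 2.73 within sedentary and 4.875 within trained muscle. Chrna2 was listed at 0, 0 and 0.0310 FPKM in sedentary and 0.0362, 0.144 and 0.0956 FPKM in trained libraries labelled Ctrl, of which 4 of 6 were at or under the level of 3 fragments. In libraries labelled strNrip1-/- it was at 0.0956, 0.0823 and 0.322 FPKM in sedentary and 0.508, 0.688 and 0.448 FPKM in trained muscle. The sum of fragments was about 26 in labelled Ctrl (95% exact Poisson interval 17.0 to 38.1) and about 185 in labelled strNrip1-/- libraries (159.3 to 213.7). These intervals cover counting error only, and the libraries differed by more than that. The genotypes did not overlap within a training state, but they did across training states, and Chrna2 stayed rare in both, at the 25.9th percentile of listed genes in labelled strNrip1-/- libraries.

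The order of mean levels in labelled strNrip1-/- libraries was Kcnk1 (25.6 FPKM), Ptgds (13.2), Tmprss13 (6.68), Wnt16 (3.52), Chrna4 (2.80), Unc13c (2.10) and Chrna2 (0.357). FPKM is per length, so levels of different genes can be set side by side. Wnt16 and Chrna4 overlapped in range (2.28 to 4.89 and 2.07 to 3.35 FPKM), and which of them was higher varied by library. Chrna4 and Unc13c (1.64 to 3.17 FPKM) overlapped as well, with Chrna4 higher in every library but sedentary replicate 1. Kcnk1 and Ptgds overlapped in range, at 16.0 to 38.5 and 6.35 to 19.4 FPKM, but Kcnk1 was above Ptgds within every labelled strNrip1-/- library. Ptgds and Tmprss13, at 5.48 to 7.48 FPKM, overlapped too, with Ptgds higher in every library but sedentary replicate 1 (6.35 against 6.52 FPKM). In labelled Ctrl libraries the order was another one, with Wnt16 (0.951 FPKM), Kcnk1 (0.672) and Chrna4 (0.638) above Unc13c (0.214), Ptgds (0.209), Tmprss13 (0.0639) and Chrna2 (0.0511). There the ranges of Wnt16, Kcnk1 and Chrna4 overlapped, those of Unc13c and Ptgds did, and those of Tmprss13 and Chrna2 did. The labelled strNrip1-/- libraries did not order the 7 genes alike: trained replicate 2 was the highest of the 6 for Kcnk1, Ptgds, Chrna2 and Wnt16 and the lowest for Tmprss13.

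The training contrast was not used to choose the genes and could be tested. None of the 7 passed in labelled strNrip1-/- muscle, in labelled Ctrl muscle or in the test of the difference between them. The test was limma on log2(FPKM + 0.5), with adjusted p under 0.05 and, for training, a fold above 1.2. It called 0.0% of 12744 genes in each of these 3 comparisons, with 1544, 1061 and 989 genes at an unadjusted p under 0.05. Chrna2, at a mean under 0.5 FPKM, entered only under the filter of 0.1 FPKM, with 15713 genes tested. In labelled strNrip1-/- muscle, trained libraries lay wholly above sedentary ones for 2 of the 7 genes, Ptgds and Chrna2, and for 7.93% of listed genes. In labelled Ctrl muscle they did so for Kcnk1 and Chrna2, and for 6.93% of listed genes.

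On the log2(FPKM + 0.5) scale Ptgds had the largest training difference in labelled strNrip1-/- muscle, while as a ratio of means that of Chrna2 was larger (3.29 against 1.76). Its mean was 9.57 ± 3.22 FPKM in sedentary and 16.8 ± 3.04 FPKM in trained libraries (SD, n = 3 each), a log2 difference of 0.82 (SE 0.27, adjusted p = 0.291 with limma). Under the alternatives the adjusted p ran from 0.0743 to 0.629. In labelled Ctrl muscle the difference was -0.08 (SE 0.27, adjusted p = 0.963), and the interaction was 0.90 (SE 0.39, adjusted p = 0.633). The synthase thus had its highest levels in trained libraries labelled strNrip1-/-, but the test did not separate them from the sedentary ones. Its labelled Ctrl values lie near the floor of 3 fragments, and it passed the filter through the labelled strNrip1-/- libraries, so that the Ctrl and interaction values rest on little signal. The same holds for Tmprss13 and Chrna2. Unc13c, at a mean of 0.214 FPKM in labelled Ctrl libraries, also passed the filter through the labelled strNrip1-/- libraries. Of its 6 Ctrl values, 0 were at or under the floor, but all were below the 0.5 FPKM added before the log2, which shrinks its Ctrl difference.

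Chrna2 was at 0.167 ± 0.135 FPKM in sedentary and 0.548 ± 0.125 FPKM in trained libraries labelled strNrip1-/- (SD, n = 3 each), a log2 difference of 0.66 (SE 0.16, adjusted p = 0.22 with limma, range under the alternatives 0.0657 to 0.457). In labelled Ctrl libraries its difference was 0.21 (SE 0.16, adjusted p = 0.775). Wnt16 differed by 0.50 in labelled strNrip1-/- muscle (SE 0.21, adjusted p = 0.39) and by -0.17 in labelled Ctrl muscle (SE 0.21, adjusted p = 0.879), with an interaction of 0.67 (SE 0.30, adjusted p = 0.64). Trained replicate 1 of Wnt16, at 2.99 FPKM, lay below the highest sedentary library, so its groups overlapped.

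The others showed smaller differences. In labelled strNrip1-/- muscle Kcnk1 differed by 0.45 (SE 0.23) and Chrna4 by 0.26 (SE 0.20) on the log2 scale, while Tmprss13 was at -0.14 (SE 0.12) and Unc13c at -0.32 (SE 0.18), with adjusted p values of 0.461 to 0.68 from limma. Kcnk1 differed by 0.41 in labelled Ctrl muscle (SE 0.23, adjusted p = 0.68), where its mean was 0.495 ± 0.0203 FPKM in sedentary and 0.849 ± 0.311 FPKM in trained libraries (SD, n = 3 each). The genes therefore did not lie on one side of 0, with 5 above it and 2 below it in labelled strNrip1-/- muscle.

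**Figure D2:**
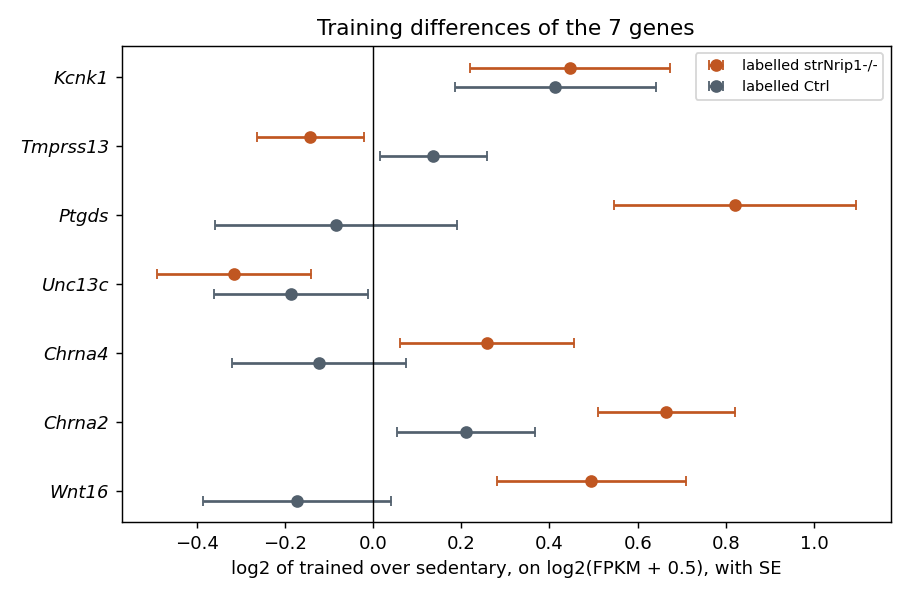
Difference of trained minus sedentary libraries on the log2(FPKM + 0.5) scale for the 7 genes (points, with bars of 1 SE from limma) in labelled strNrip1-/- and labelled Ctrl muscle. Ptgds, at 0.82, and Chrna2, at 0.66, lie farthest to the right in labelled strNrip1-/- muscle, and no gene passed the test.

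Relatives of the 7 genes were read in the same genotype comparisons. In the sedentary and trained genotype comparisons limma called 3.51% and 5.98% of all 12744 genes, and the lists of relatives below are read beside those shares. At such shares a short list holds few or no calls, so a count of 0 does not set relatives apart from other genes. An unadjusted p under 0.05 was found for 2080 and 2683 of the 12744 genes. Fiber receptors of the muscle kind are built from Chrna1, Chrnb1, Chrnd and Chrne in adult muscle. These 4 genes and Chrna10 were the 5 nicotinic subunits tested besides Chrna4, and 0 of 5 were called in either comparison, nor did any have an unadjusted p under 0.05. Their median log2 difference was 0.13 in sedentary and -0.00 in trained muscle, beside -0.00 and 0.01 over all genes. Chrnb1 was at 24.0, 23.9, 25.0 and 24.6 FPKM and Chrne at 21.0, 21.5, 24.6 and 21.0 FPKM (means of sedentary Ctrl, trained Ctrl, sedentary strNrip1-/- and trained strNrip1-/- libraries, n = 3 each). In the same order Chrna1 was at 5.28, 5.60, 5.84 and 6.33 FPKM, Chrnd at 2.82, 2.70, 2.54 and 2.60 FPKM, and Chrna10 at 1.25, 1.69, 1.54 and 1.71 FPKM. The beta subunits with which alpha 4 and alpha 2 pair were nearly silent: group means of Chrnb2 were 0.0167 to 0.0767 FPKM and those of Chrnb4 0.0091 to 0.0231 FPKM. Chrna4 thus reached the level of Chrnd and stayed below Chrna1.

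Among the other two-pore potassium channels 0 of 4 tested were called in either comparison, with 1 and 0 at an unadjusted p under 0.05. Kcnk2 was at 1.52, 1.77, 1.41 and 1.86 FPKM in the same order of groups, and Kcnk4 at 1.295, 1.262, 1.201 and 0.994 FPKM. Kcnk3, which encodes TASK-1, had group means of 0.299, 0.776, 2.44 and 0.729 FPKM, but 1 library, sedentary strNrip1-/- replicate 3 at 5.47 FPKM, made up most of the third. The other sedentary strNrip1-/- libraries, at 0.948 and 0.901 FPKM, also lay above all sedentary Ctrl libraries, at 0.244 to 0.344 FPKM. Its log2 difference was 1.525 in sedentary (SE 0.53, adjusted p = 0.168 with limma) and 0.031 in trained muscle (SE 0.53, adjusted p = 0.982). Kcnk1 thus went from about the level of its relatives to several times the highest of them.

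None of the 8 other WNT ligands tested was called, with 2 at an unadjusted p under 0.05 in each comparison. Wnt11 was at 8.97, 8.26, 7.50 and 11.0 FPKM, Wnt4 at 6.95, 5.79, 4.99 and 4.83 FPKM, and Wnt9a at 4.46, 4.82, 3.91 and 3.78 FPKM. Their median log2 difference was -0.19 in sedentary and -0.02 in trained muscle. Of 19 WNT receptors and secretion genes, 0 were called in sedentary muscle, with 4 at an unadjusted p under 0.05, and 2 in trained muscle, with 7. Lrp6, a WNT coreceptor, rose by 0.48 (SE 0.09, adjusted p = 0.00869), and the receptor-like kinase Ryk fell by 0.30 (SE 0.06, adjusted p = 0.0181). The call of Ryk was lost without trained Ctrl replicate 1 or 3 or trained strNrip1-/- replicate 1 or 2 (adjusted p = 0.051 to 0.0673) and on rescaling each library to the same sum (adjusted p = 0.272). With only the trained libraries fitted both were lost (adjusted p = 0.0584 for Ryk and 0.055 for Lrp6). In sedentary muscle Lrp6 (0.32, SE 0.09, adjusted p = 0.0743) was called without trained strNrip1-/- replicate 2 (adjusted p = 0.0398), and Ryk (-0.25, SE 0.06, adjusted p = 0.0538) without sedentary strNrip1-/- replicate 3 (adjusted p = 0.0483).

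For prostaglandins, 0 of 12 tested genes other than Ptgds were called, with 1 and 3 at an unadjusted p under 0.05. Enzymes that supply prostaglandin H2 were low: Ptgs1 was at 1.97, 2.67, 1.92 and 1.71 FPKM, and group means of Ptgs2 were 0.0384 to 0.0586 FPKM. The other prostaglandin D2 synthase, Hpgds, was at 0.26, 0.179, 0.146 and 0.174 FPKM, and the prostaglandin D2 receptor Ptgdr2 at 0.0119 to 0.0168 FPKM. Of type II transmembrane serine proteases and their inhibitors only 3 were tested besides Tmprss13, and 0 were called, with 2 and 1 at an unadjusted p under 0.05. Hpn (hepsin) was at 8.36, 6.29, 5.69 and 4.56 FPKM and the inhibitor Spint2 at 5.99, 4.22, 4.25 and 3.32 FPKM, both with their lowest mean in trained strNrip1-/- libraries.

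Of 11 genes of vesicle priming and release tested besides Unc13c, 1 was called in each comparison, and neither was higher. Napa, a cofactor of SNARE disassembly, fell by 0.52 in sedentary muscle (SE 0.11, adjusted p = 0.023), a call lost without sedentary Ctrl replicate 1 or 2 or sedentary strNrip1-/- replicate 1 or 2 (adjusted p = 0.0565 to 0.092). Unc13d, a Munc13 of immune and other secretory cells, fell by 0.51 in trained muscle (SE 0.13, adjusted p = 0.049), a call lost without any one of the 12 libraries (adjusted p = 0.0542 to 0.132) and under 5 other alternatives, rescaling to the same sum among them (adjusted p = 0.053 to 0.138). Unc13b, the Munc13 relative found outside neurons as well, was at 0.923, 0.940, 0.971 and 1.003 FPKM.

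**Figure D3:**
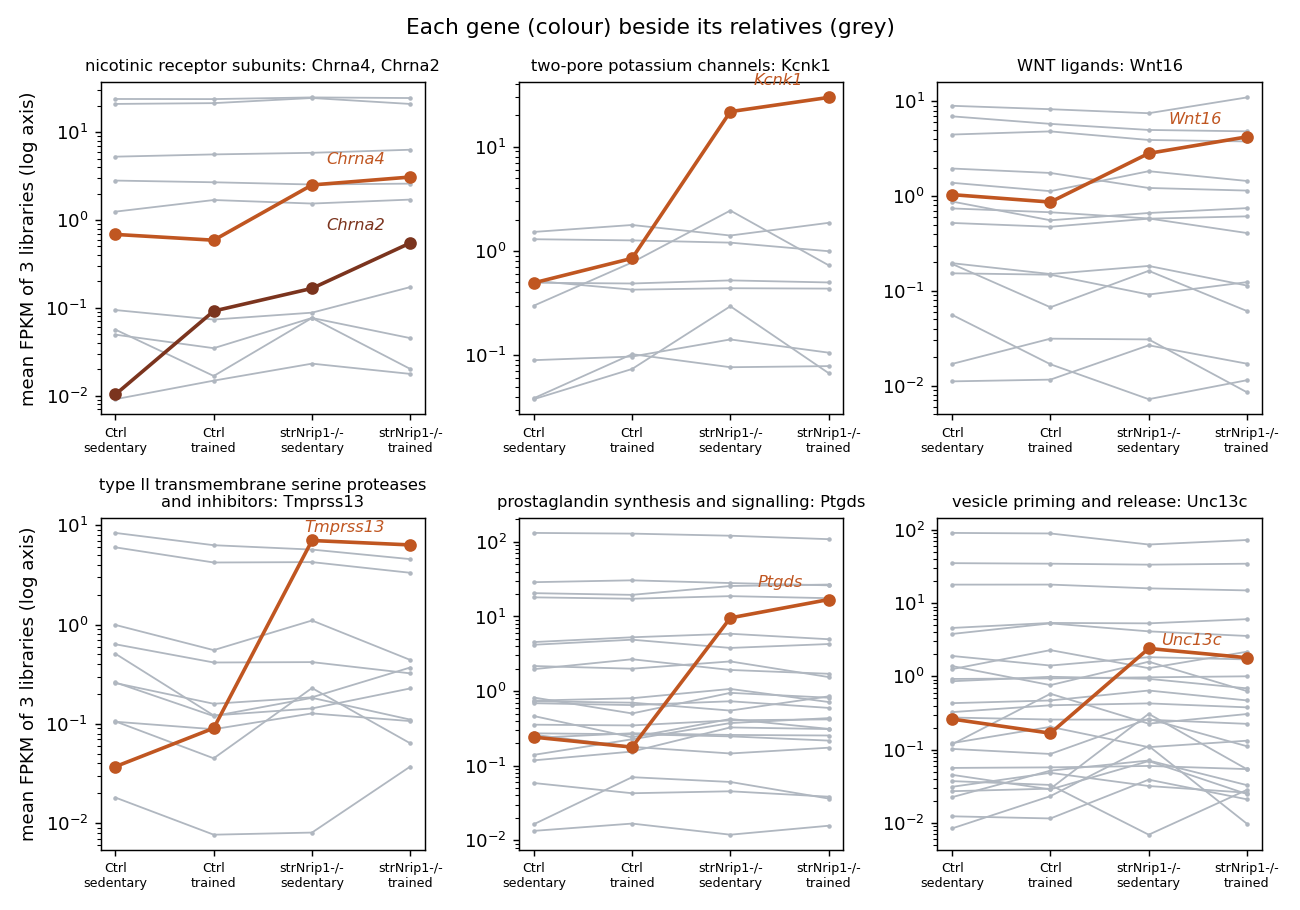
Mean FPKM of 3 libraries on log axes in the 4 groups for each of the 7 genes (colour, named in each panel) and for their relatives with values above 0 in every group (grey). Kcnk1, Tmprss13 and Ptgds rise across the field of their relatives, whereas grey lines of the muscle nicotinic subunits run nearly flat.

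Chrna4, Chrna2, Unc13c and Wnt16 belong to 8 genes that the study named for the neuromuscular junction from these samples, so the following counts are not independent evidence of their direction. The study also reports on other samples. It found Wnt16, Chrna2 and Unc13c raised in cultured Nrip1-/- myotubes, whereas Musk was not. Peaks of the enhancer mark H3K27ac near Wnt16 and Unc13c were also reported as increased in such myotubes, with no change at Musk. It found Wnt16 and Unc13c raised in gastrocnemius muscle lacking Nrip1, and tagged RIP140 at a region of Wnt16 in a muscle cell line. By blot, it found more MUSK protein in EDL of strNrip1-/- mice. Those data were not used here. Of the others on the list of 8 genes, 3 passed the filter, namely Musk, the receptor kinase that clusters acetylcholine receptors, Zmynd8 and Pde4a. Musk rose by 1.39 in sedentary (SE 0.17, adjusted p = 0.00141) and 1.41 in trained muscle (SE 0.17, adjusted p = 0.00126). Pde4a rose by 0.49 (SE 0.11, adjusted p = 0.0365) and Zmynd8 by 0.38 (SE 0.09, adjusted p = 0.0488) in sedentary muscle, and neither was called in trained muscle (0.33, SE 0.11, adjusted p = 0.108, and 0.10, SE 0.09, adjusted p = 0.577). The call of Zmynd8 was lost without any one of the 12 libraries (adjusted p = 0.0594 to 0.145), and that of Pde4a without any of the 6 sedentary libraries or trained strNrip1-/- replicate 1 or 3 (adjusted p = 0.0525 to 0.129). Without trained Ctrl replicate 1, Pde4a was called in trained muscle (adjusted p = 0.0297). On rescaling to the same sum both sedentary calls were lost (adjusted p = 0.206 for Pde4a and 0.375 for Zmynd8), as they were with only the sedentary libraries fitted, and that of Zmynd8 also with other filters and the replicate block. In the agrin-MuSK list of 12 tested genes and in the list of 13 genes of denervated or immature fibers, Musk was the single gene called in each comparison. The summed level of all 16 genes of the latter list was 205.6 to 231.4 FPKM in sedentary Ctrl, 218.2 to 1416 in trained Ctrl, 517.8 to 800.9 in sedentary strNrip1-/- and 809.6 to 888.3 FPKM in trained strNrip1-/- libraries. Most of that sum was Actc1, cardiac alpha-actin, with group means of 128.9, 527.8, 519.7 and 743.9 FPKM in the same order. The trained Ctrl mean had an SD of 684.9 FPKM, and 1 library at 1319 FPKM made up most of it. The median log2 difference of the 13 tested genes was 0.11 in sedentary and -0.04 in trained muscle, with 8 and 6 of them above 0. The part of these genes in the levels of the 7 genes was not tested.

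Markers of other cell types that can express some of these genes were read beside them. Markers of Schwann cells (11 tested), epithelium (5), neurons (2), fibroblasts (9), meninges and perineurium (7), macrophages and mast cells (10) and satellite cells (5) had 0 genes called in either genotype comparison, with 1, 3, 0, 1, 1, 0 and 0 genes at an unadjusted p under 0.05 in sedentary and 1, 1, 0, 0, 1, 1 and 0 in trained muscle. The summed level of 9 neuron markers was 2.23 to 2.61 FPKM in sedentary Ctrl, 1.48 to 2.48 in trained Ctrl, 2.55 to 2.99 in sedentary strNrip1-/- and 2.28 to 3.35 FPKM in trained strNrip1-/- libraries, and 3 of the 9 were under 0.1 FPKM in every library. For 9 meningeal and perineurial markers these ranges were 18.5 to 21.9, 15.0 to 18.1, 17.3 to 21.8 and 16.1 to 22.2 FPKM. For 9 epithelial markers, the cells in which Tmprss13 is best known, they were 21.4 to 25.2, 9.54 to 16.0, 13.3 to 14.3 and 1.78 to 10.04 FPKM. These sums were lower in sedentary strNrip1-/- than in sedentary Ctrl libraries, and overlapped in trained muscle. The median log2 difference of the 5 tested epithelial markers was -1.096 in sedentary and -0.886 in trained muscle, with 1 above 0 in each. Schwann cell markers ran from 83.4 to 120.1, 55.6 to 73.1, 58.0 to 87.2 and 69.8 to 110.4 FPKM.

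Sums of some other marker lists also differed between the genotypes. The sum of 8 adipocyte markers was 177.5 to 180.0, 192.1 to 293.3, 239.4 to 329.0 and 305.4 to 416.3 FPKM, with no marker at 0 throughout a group. The median log2 difference of the tested adipocyte markers was 0.99 in sedentary and 0.23 in trained muscle. Of 7 tested, 6 were above 0 in sedentary and 7 in trained muscle, with 4 and 1 at an unadjusted p under 0.05. Only Pnpla2, a triglyceride lipase also found in fibers, was called. It made up much of the sum, with group means of 116.6, 131.8, 173.6 and 238.4 FPKM, and rose by 0.57 (SE 0.11, adjusted p = 0.0198) in sedentary and 0.85 (SE 0.11, adjusted p = 0.00179) in trained muscle. Its sedentary call was lost without sedentary Ctrl replicate 1, 2 or 3 or sedentary strNrip1-/- replicate 2 (adjusted p = 0.062 to 0.0829). Endothelial markers summed to 150.2 to 157.7, 136.0 to 154.7, 159.5 to 188.4 and 166.8 to 176.3 FPKM. Of 10 tested, 10 were above 0 in sedentary and 9 in trained muscle, with 3 and 4 at an unadjusted p under 0.05. Tie1 was the 1 of 10 called by limma, in trained muscle (0.42, SE 0.08, adjusted p = 0.0125). That call was lost without trained replicate 3 of either genotype (adjusted p = 0.053 to 0.0648) or with only the trained libraries fitted (adjusted p = 0.0567). Fast fiber markers summed to 129600 to 141200, 128700 to 155300, 98720 to 126100 and 112400 to 116300 FPKM, with every labelled strNrip1-/- library below every labelled Ctrl library. Of the 10, 1 was above 0 in each comparison, the median log2 difference was -0.32 in sedentary and -0.28 in trained muscle, and 6 and 5 had an unadjusted p under 0.05. The single one called, Actn3, fell by 0.91 in sedentary (SE 0.08, adjusted p = 0.000252) and 0.75 in trained muscle (SE 0.08, adjusted p = 0.000817). The part of these cells in the levels of the 7 genes was not tested, and in bulk muscle more cells of a type and more RNA per cell cannot be told apart.

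The pattern that named these genes was uncommon in the table. It was written as a mean under 1 FPKM in labelled Ctrl libraries, a mean of at least 0.5 FPKM and at least 3 times as high in labelled strNrip1-/- libraries, and no overlap between the genotypes. Of 6514 genes with a mean under 1 FPKM in labelled Ctrl libraries, 19 had it (0.292%), among them 6 of the 7 genes. Chrna2 lacked it by its mean of 0.357 FPKM and by its overlap. With the genotypes exchanged, 5 of 6504 genes had it (0.0769%): Syt3, Htra4, 1700001O22Rik, Pld5 and Ppm1n, named here after their values were seen. The one with the largest ratio, Ppm1n, was at 0.786 FPKM in labelled Ctrl and 0.0259 FPKM in labelled strNrip1-/- libraries. This is a description of how the genes were found, and no test was made of it.

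The other 13 genes with the pattern were lower than Kcnk1, Ptgds and Tmprss13. The 10 with the highest labelled strNrip1-/- means were Cabcoco1 (0.261 FPKM in labelled Ctrl and 3.35 in labelled strNrip1-/- libraries), Musk (0.900 and 3.19), Pcnx2 (0.509 and 2.61), Tecta (0.440 and 2.21), the processed pseudogene Gm13604 (0.451 and 1.98), Nacad (0.427 and 1.56), Cdh22 (0.128 and 1.02), Phf19 (0.257 and 0.917), Samsn1 (0.127 and 0.757) and Sdsl (0.192 and 0.710). A pseudogene can share fragments with its parent gene, so the value of Gm13604 is uncertain. None of these 10 had a ratio as high as those of Kcnk1, Tmprss13 or Ptgds, and Cabcoco1, at 12.8, came nearest.

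**Figure D4:**
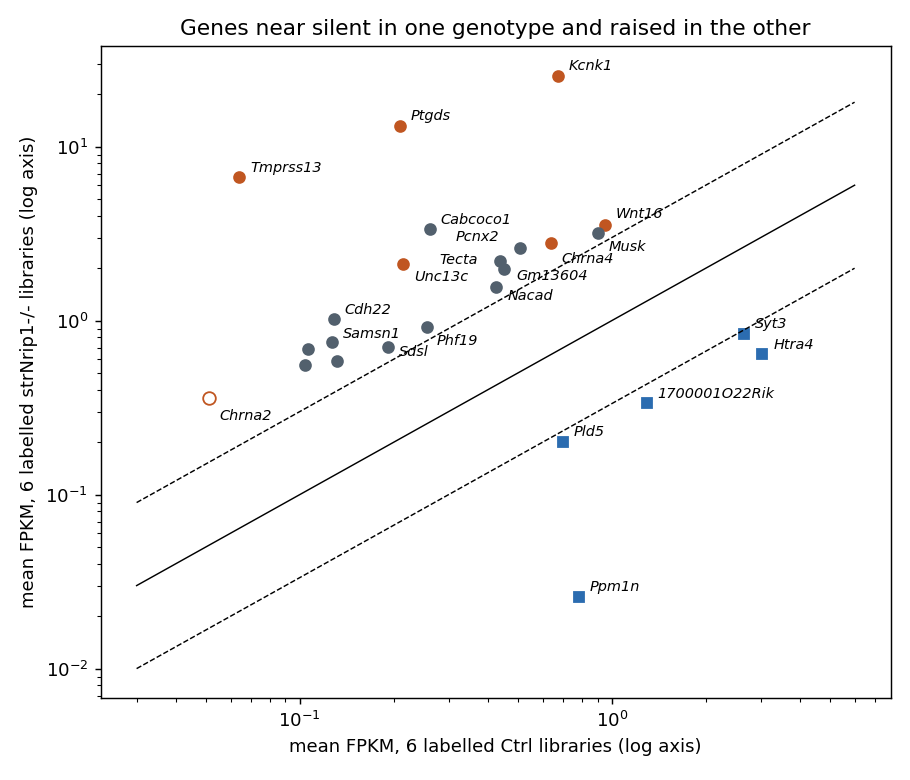
Mean FPKM in the 6 labelled strNrip1-/- libraries against that in the 6 labelled Ctrl libraries, both on log axes, for the genes with the pattern in either direction; orange points are the 7 genes (Chrna2, open, lacks the pattern), grey points are 13 others, of which the 10 highest are named, and blue squares are the 5 in the opposite direction. The solid line marks equal means and the dashed lines a ratio of 3, and Kcnk1, Ptgds and Tmprss13 stand apart from the rest by their ratio.

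Genes in the neighborhood of the 7 were also read. Of the 28 nearest listed genes, 2 on each side of each, 19 were tested, and limma called 3 in the sedentary and 5 in the trained genotype comparison, in which 3.51% and 5.98% of all tested genes were called. At Kcnk1 both neighbors on the lower side were low in labelled Ctrl muscle. Pcnx2, which encodes a membrane protein and lies 96.9 kb from Kcnk1 on the opposite strand, was at 0.530, 0.670 and 0.291 FPKM in sedentary and 0.326, 0.644 and 0.592 FPKM in trained Ctrl libraries, and at 2.62, 2.27 and 2.68 FPKM in sedentary and 2.67, 2.74 and 2.68 FPKM in trained strNrip1-/- libraries. It rose by 1.62 (SE 0.17, adjusted p = 0.000616) and 1.66 (SE 0.17, adjusted p = 0.000395). Map3k21, a kinase gene between Pcnx2 and Kcnk1, was too low to be tested and was singled out after its values were seen. It was at 0.0144 to 0.0573 FPKM in the 6 labelled Ctrl and 0.110 to 0.264 FPKM in the 6 labelled strNrip1-/- libraries, which did not overlap. On the other side Slc35f3, 267.9 kb away, was at 0.0458, 0.0705, 0.203 and 0.0619 FPKM in the 4 groups, and Coa6, 391.8 kb away, was not called (0.13 and -0.04, SE 0.15 each).

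Called neighbors were also found at Tmprss13, Ptgds and Chrna2. Beside Tmprss13, Fxyd6, a modulator of the sodium pump 22.6 kb away, rose by 0.79 in trained muscle (SE 0.11, adjusted p = 0.00217) and was not called in sedentary muscle (0.36, SE 0.11, adjusted p = 0.111), a comparison in which it was called without sedentary strNrip1-/- replicate 3 (adjusted p = 0.0408) and with quantile normalization (adjusted p = 0.0383). BC049352, 69.1 kb to the other side, rose by 1.13 in sedentary muscle (SE 0.27, adjusted p = 0.0447), a call lost without any of 9 of the 12 libraries (adjusted p = 0.053 to 0.144), and with other filters or the replicate block (adjusted p = 0.0528 to 0.0657). Paxx, a DNA repair gene 5.62 kb from Ptgds, rose by 0.68 in sedentary (SE 0.14, adjusted p = 0.0208) and 0.67 in trained muscle (SE 0.14, adjusted p = 0.0165), whereas Ptgds differed by 3.77 and 4.67 on the same scale. Its calls were lost without any of 5 sedentary libraries, all but strNrip1-/- replicate 3 (adjusted p = 0.0661 to 0.0792), and without trained replicate 1 or 3 of labelled Ctrl or 2 or 3 of labelled strNrip1-/- (adjusted p = 0.0554 to 0.0726). The trained one was also lost with only the trained libraries fitted (adjusted p = 0.0567).

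Beside Chrna2, Ephx2, a soluble epoxide hydrolase gene 10.5 kb away, rose by 0.48 (SE 0.11, adjusted p = 0.0236) and Trim35, 144.1 kb away, fell by 0.47 (SE 0.08, adjusted p = 0.00622), both in trained muscle. In sedentary muscle Ephx2 (0.40, SE 0.11, adjusted p = 0.0699) was called without trained Ctrl replicate 3 (adjusted p = 0.0335). Its trained call was lost without trained Ctrl replicate 1 or 3 or any trained strNrip1-/- library (adjusted p = 0.0537 to 0.0789) or with only the trained libraries fitted (adjusted p = 0.0758), and that of Trim35 on rescaling to the same sum (adjusted p = 0.0917). No neighbor of Unc13c, Chrna4 or Wnt16 was called. Col20a1, which lies 0.017 kb from the annotated extent of Chrna4, was at 1.14, 0.763, 0.759 and 0.969 FPKM in the 4 groups, and Ptk2b, 0.309 kb from Chrna2, was at 0.441, 0.2796, 0.321 and 0.264 FPKM. Neither of these closest genes was raised by the amount of its neighbor.

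The genes whose pattern over the 12 libraries was most like the mean profile of the 6 tested genes were abundant ones. By Pearson's r of log2(FPKM + 0.5) they were Slc38a10 (0.994), Wfs1 (0.989), As3mt (0.986), Igsf8 (0.985), Fabp3 (0.982), Cabcoco1 (0.981), Tmem86a (0.980), Coro6 (0.978), St6galnac6 (0.978) and Got1 (0.975). All 12 libraries fall into the same 2 genotypes in each, so r mainly describes that split. Slc38a10, a member of an amino acid transporter family, was at 18.9, 21.3, 69.8 and 80.6 FPKM, and Fabp3, the fatty acid binding protein of heart and oxidative muscle, at 365.7, 438.6, 1433 and 1745 FPKM. Unlike the 7 genes, 9 of these 10 had group means above 5 FPKM in labelled Ctrl muscle, with Cabcoco1 as the exception. The 6 genes themselves correlated with their mean profile at 0.953 (Wnt16) to 0.991 (Kcnk1). Each is part of that profile and was chosen on the genotype split, so nothing is read from these values.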

How the data were processed

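RNA-seq was performed by the authors on EDL of 4 groups of 3 libraries (labelled Ctrl or Nrip1KO, sedentary or trained). Per the labels and the study's methods, RNA was DNase treated, libraries were made with a kit that does not mark strand, and reads were quantified with Salmon 1.10.2 against mm10, summed with tximport and tested with DESeq2 1.44.0. The authors deposited FPKM for each gene and library. They also deposited log2 fold changes and adjusted p-values of their own comparisons (8 columns), which were not used.

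Read counts were not used here, so limma 3.58.1 (R 4.3.3) with a trend was fitted to log2(FPKM + 0.5) of all 12 libraries, keeping the 12744 genes whose mean reached 0.5 FPKM, two-sided, with Benjamini-Hochberg adjustment. The script was tested on simulated data. A fold change on this scale understates that of low genes. For depth, the step between low FPKM values was fitted in 1619 genes with 1 transcript over 1500 nt. At that depth 99.1% to 99.8% of their low values per library came within 0.15 of whole fragments, against 30% if evenly spread, and fragments of single genes follow from it. Replicates shared no identical values above 0. GENCODE M21 matched 17745 of 17752 identifiers.

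The 7 genes and all gene lists were chosen with earlier results of these data known. Named were the 7 genes, Nrip1, 10 other genes with the same pattern, the 10 genes most alike in profile, genes called or relatives at a mean of at least 0.5 FPKM from each list, and called or overlapping neighbors among the 2 nearest listed genes on each side. Relatives that reached this mean but are not named are given only in the counts. A call needed an adjusted p under 0.05 and, except for the interaction, a fold above 1.2. Alternatives were other pseudocounts, filters and scalings, fewer libraries, a replicate block and leaving out each library.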

Additional observations from a re-analysis of the deposited data

How the results depend on the processing

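The genotype comparisons called 447 genes in sedentary muscle (245 higher, 202 lower) and 762 in trained muscle (409 higher, 353 lower). With only the 6 libraries compared, 166 and 445 were called. Leaving out each library gave 163 to 478 and 315 to 874. Rescaling each library to the same FPKM sum moved the median of all genes by -0.14 in sedentary muscle, 0.16 for training in labelled strNrip1-/- muscle and 0.20 for the interaction, and with it the share of higher calls from 54.8% to 18.6% in sedentary and from 53.7% to 80.9% in trained muscle. Training calls were 0 in both genotypes. In labelled strNrip1-/- muscle they became 150 on rescaling (143 higher) and 0 to 4 on leaving out each library. In labelled Ctrl muscle they became 1 on rescaling, 4 with quantile normalization and 0 to 30 on leaving out each library, the highest without trained Ctrl replicate 1. The interaction went from 0 to between 0 and 1 on leaving out each library.

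None of the training or interaction tests of the 7 genes passed under any alternative, those for Chrna2 with the filter at 0.1 FPKM, chosen after seeing the data, included. Small differences turned: the interaction of Kcnk1 (0.03) to -0.165 with a pseudocount of 0.1 and -0.074 with quantile normalization (-0.169 to 0.22 on leaving out each library), that of Unc13c (-0.13) to 0.046 with a pseudocount of 0.1 and 0.024 on rescaling (-0.288 to 0.053), training of Tmprss13 in labelled strNrip1-/- muscle to 0.021 on rescaling, of Ptgds in labelled Ctrl muscle to 0.038 with quantile normalization (-0.341 to 0.144), of Chrna4 in labelled Ctrl muscle (-0.30 to 0.053 on leaving out each library), and the sedentary genotype difference of Unc13d to -0.033 on rescaling. The cause was not tested.

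The count of genes with the switched-on pattern was 31 with a ratio of at least 2 in place of 19, and 19 to 28 on leaving out each library (28 without trained Ctrl replicate 1), where Wnt16 lacked it without trained Ctrl replicate 3. It was 14 with a labelled Ctrl mean under 0.5 FPKM, when 3 of the 7 genes had it (Tmprss13, Ptgds and Unc13c), and 13 with a labelled strNrip1-/- mean of at least 1 FPKM. The same replicate numbers do not pair the libraries: deviations of libraries with the same number correlated at -0.10 to 0.24, 5 of 18 pairs over 0.1, and 4 of 12 libraries correlated best with their own number. With the replicate number as a block, 441 and 756 genes were called for genotype, and 0 and 4 for training in labelled strNrip1-/- and labelled Ctrl muscle. Depth limits Tmprss13, Ptgds and Chrna2 in labelled Ctrl libraries.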
